A study of Mus musculus with 4 samples.

Results

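The 7 Fc receptor genes described here are Fcgr1, Fcgr3, Fcgr4, Fcgr2b, Fcer1g, Fcgrt and Fcrls, chosen by symbol as 7 of the 31053 genes counted in each library. Immune cells that carry CD45, the common leukocyte antigen, were sorted from the spinal cord of C57BL/6 mice that were 3 months old and sequenced in 4 libraries, 1 per condition. The sham_standard library came from sham mice and the usual dissociation. The sham_ActD library came from sham mice with actinomycin D (ActD), a transcription inhibitor, in every dissociation step. The 3dpi and 14dpi libraries came from mice 3 and 14 days after contusion of the thoracic spinal cord, both with ActD. Mice of both sexes were divided at random into a control and the injury groups, per the paper. Whether mice were pooled, and how many entered each library, is not given in the sources used here. Before the sort, cells were incubated with an antibody to CD16/32, the proteins of Fcgr3 and Fcgr2b, which was meant to block Fc receptors, and its part in the RNA levels was not tested.

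Fc receptors bind the constant part of antibodies. Fcgr1, Fcgr3 and Fcgr4 encode the activating IgG receptors of the mouse, which reach the surface with the common gamma chain encoded by Fcer1g and signal through its ITAM motif to the kinase Syk. Fcgr2b encodes the inhibitory IgG receptor, which carries an ITIM motif and recruits the phosphatase SHIP1, and it is the classical IgG receptor of B cells. Fcgrt encodes the heavy chain of the neonatal Fc receptor, which pairs with beta-2 microglobulin and recycles IgG inside cells. Fcrls encodes an Fc receptor-like protein known as a marker of microglia.

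Promoters of 4 of the genes are shown because Fcgr1 and Fcgr4 differed from Fcgr3 and Fcgr2b between clusters of the same class, as described further on. The windows, from RefSeq on GRCm38.p6, run 5′ to 3′ along the gene's strand from 250 bases before the RefSeq start of the gene to 50 bases after it. The windows of Fcgr3 and Fcgr2b lie inside the GENCODE spans of these genes given further on, so the starts differ between the annotations. Capitals mark matches on either strand to GAAA followed after 2 bases by GAAA (an ISRE-like motif of interferon regulatory factors) and GAGGAA (the core of PU.1 sites), and none of these matches overlap.
Fcgr1, chr3:96293920-96294219, minus strand: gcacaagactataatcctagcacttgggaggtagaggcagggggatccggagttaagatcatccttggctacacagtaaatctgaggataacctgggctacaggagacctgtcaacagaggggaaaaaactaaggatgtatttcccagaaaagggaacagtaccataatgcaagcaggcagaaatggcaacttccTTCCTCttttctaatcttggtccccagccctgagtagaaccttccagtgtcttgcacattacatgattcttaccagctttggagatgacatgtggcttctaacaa
Fcgr4, chr1:171018676-171018975, plus strand: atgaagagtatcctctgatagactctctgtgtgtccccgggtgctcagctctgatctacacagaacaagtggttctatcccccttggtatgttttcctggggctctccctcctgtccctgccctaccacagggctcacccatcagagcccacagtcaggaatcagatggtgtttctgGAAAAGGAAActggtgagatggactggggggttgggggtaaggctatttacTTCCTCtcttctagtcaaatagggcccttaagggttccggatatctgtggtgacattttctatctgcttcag
Fcgr3, chr1:171059354-171059653, minus strand: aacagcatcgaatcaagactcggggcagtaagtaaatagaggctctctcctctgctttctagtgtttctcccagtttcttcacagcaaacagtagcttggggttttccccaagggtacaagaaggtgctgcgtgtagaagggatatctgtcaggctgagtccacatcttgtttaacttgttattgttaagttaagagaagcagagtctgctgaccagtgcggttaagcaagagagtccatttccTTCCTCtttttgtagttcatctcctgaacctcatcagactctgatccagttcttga
Fcgr2b, chr1:170976022-170976321, minus strand: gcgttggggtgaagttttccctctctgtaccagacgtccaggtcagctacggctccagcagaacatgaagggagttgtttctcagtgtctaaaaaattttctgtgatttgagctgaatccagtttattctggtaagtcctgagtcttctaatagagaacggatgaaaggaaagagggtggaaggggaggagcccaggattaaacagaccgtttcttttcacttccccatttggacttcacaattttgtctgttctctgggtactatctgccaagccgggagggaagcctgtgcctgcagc
The window of Fcgr4 held the only ISRE-like match among the promoters of the 7 genes, all of which were found in RefSeq. Matches to the PU.1 core were in the windows of Fcgr1, Fcgr3, Fcgr4 and Fcrls. Of 27025 promoters of the same length, 3.49% held an ISRE-like match and 28.3% a PU.1 core. RefSeq lists 2 starts for Fcgr3, and the window of the first is shown.

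All 7 genes are protein-coding in GENCODE M21 and each symbol had 1 row in the matrices. Fcgr2b (chromosome 1, 170958617 to 170976547), Fcgr4 (171018920 to 171029761), Fcgr3 (171051174 to 171064935) and Fcer1g (171229572 to 171234365) lie on chromosome 1. Fcrls (87250758 to 87263738) and Fcgr1 (96282909 to 96293969) lie on chromosome 3, and Fcgrt (45092990 to 45103851) on chromosome 7. Fcgr3 and Fcgr2b share an unbroken run of 129 bases between their longest protein-coding transcripts. In the last 500 bases, where 3′ tags of these transcripts fall, the longest run shared by these genes was 9 bases, and the longest run shared by any 2 of the 7 genes was 13 bases.

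The libraries held 6827, 2439, 10763 and 11631 barcodes (sham_standard, sham_ActD, 3dpi, 14dpi) with 60412094, 27447471, 125270696 and 129935880 UMIs (unique molecular identifiers, 1 per captured RNA molecule), and 5035, 2135, 8214 and 9078 cells passed the filters. Between 3 and 36 barcodes were shared by any pair of libraries. Cells were clustered without the 7 genes, and clusters were named from marker lists, so that each class is a set of clusters that is microglia-like, border-macrophage-like and so on. The class names stand for these clusters from here on. Microglia numbered 2441, 1583, 762 and 4160, and at least 8 of their 9 markers were detected in 25% of cells of each library. Border macrophages (Mrc1, Cd163, Lyve1 and others) numbered 82, 79, 335 and 122. Injury macrophages (Arg1, Gpnmb, Fn1 and others) were 2699 cells at 3dpi and 273 at 14dpi, and both kinds together are called macrophages. Neutrophils numbered 390, 103, 1822 and 649 and B cells 588, 64, 131 and 284. The B cell class was not split by maturity. With a stricter cell filter, 262 cells of sham_standard that scored highest as B cells stayed unnamed. Their leading genes included Rag1, a marker of pro-B and pre-B cells. The level of a gene is its share of the UMIs of a class scaled as CPM (counts per 1e6 UMIs), and intervals are exact 95% intervals that cover counting error only.

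Each UMI is a 3′ tag of 1 molecule, so levels need no scaling by transcript length. Fcgr3 was the most abundant of the 4 IgG receptor genes by UMIs in microglia of every library. It stood at 801.7 CPM in sham_standard, 1021 in sham_ActD, 640.1 in 3dpi and 770.8 in 14dpi. Fcgr1, the high-affinity IgG receptor, stood at 282.2, 517.6, 240.2 and 400.5 CPM in the same order. Both were highest in sham_ActD and lowest in 3dpi. Fcgr2b stood at 122.9, 294.1, 175.9 and 227.0 CPM, again highest in sham_ActD but lowest in sham_standard. Fcgr4 was the rarest, at 14.1 CPM in sham_standard (12.5 to 15.8), 34.3 in sham_ActD (31.6 to 37.1), 74.3 in 3dpi (70.1 to 78.7) and 61.3 in 14dpi (59.1 to 63.5). Fcer1g reached 2162, 2293, 2776 and 3150 CPM, and Fcrls 929.7, 967.7, 1088 and 1237 CPM. Both had their highest level at 14dpi. Fcgrt stood at 68.5, 81.5, 54.8 and 46.6 CPM. After each cell was thinned to 1000 UMIs, Fcer1g was found in 83.3% to 92.6% of microglia and Fcgr4 in 1.07% to 7.36%.

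The microglia of the libraries lay in different clusters. Cluster 0 held 1832 of the 2441 microglia of sham_standard and 1335 of the 1583 of sham_ActD. At 3dpi it held 181 of 762, and 438 were in cluster 10, whose leading genes in this library included Top2a and Mki67, which dividing cells express. Cluster 10 scored 0.465 as microglia and 0.309 as injury macrophages at 3dpi, close to the limit of the naming rule. Without doublet removal, 530 cells that shared leading genes with it stayed unnamed at 3dpi. With the stricter filter 127 such cells were unnamed and 142 named microglia, and with the looser filter 248 and 273. At resolution 0.3, 422 such cells were named microglia, as were 227 with each library clustered alone and 299 and 203 with Itgam-positive cells kept. At 14dpi cluster 0 held 937 of 4160, and 2453 were in cluster 1, led by Lpl and Ch25h. At 3dpi cluster 1 held 315 cells, whose leading genes also included Ch25h and Lpl. They scored between microglia and injury macrophages and stayed without a name. With these cells counted as microglia, log2 ratios of the members in microglia shifted by -0.09 to 0.09, and no sign changed. In cluster 0 alone Fcgr4 stood at 13.1, 34.1, 91.8 and 63.2 CPM. Fcgr1 stood at 277.5, 539, 267 and 455 CPM in that cluster, and Fcgr2b at 128, 309, 200 and 253 CPM.

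**Figure D1:**
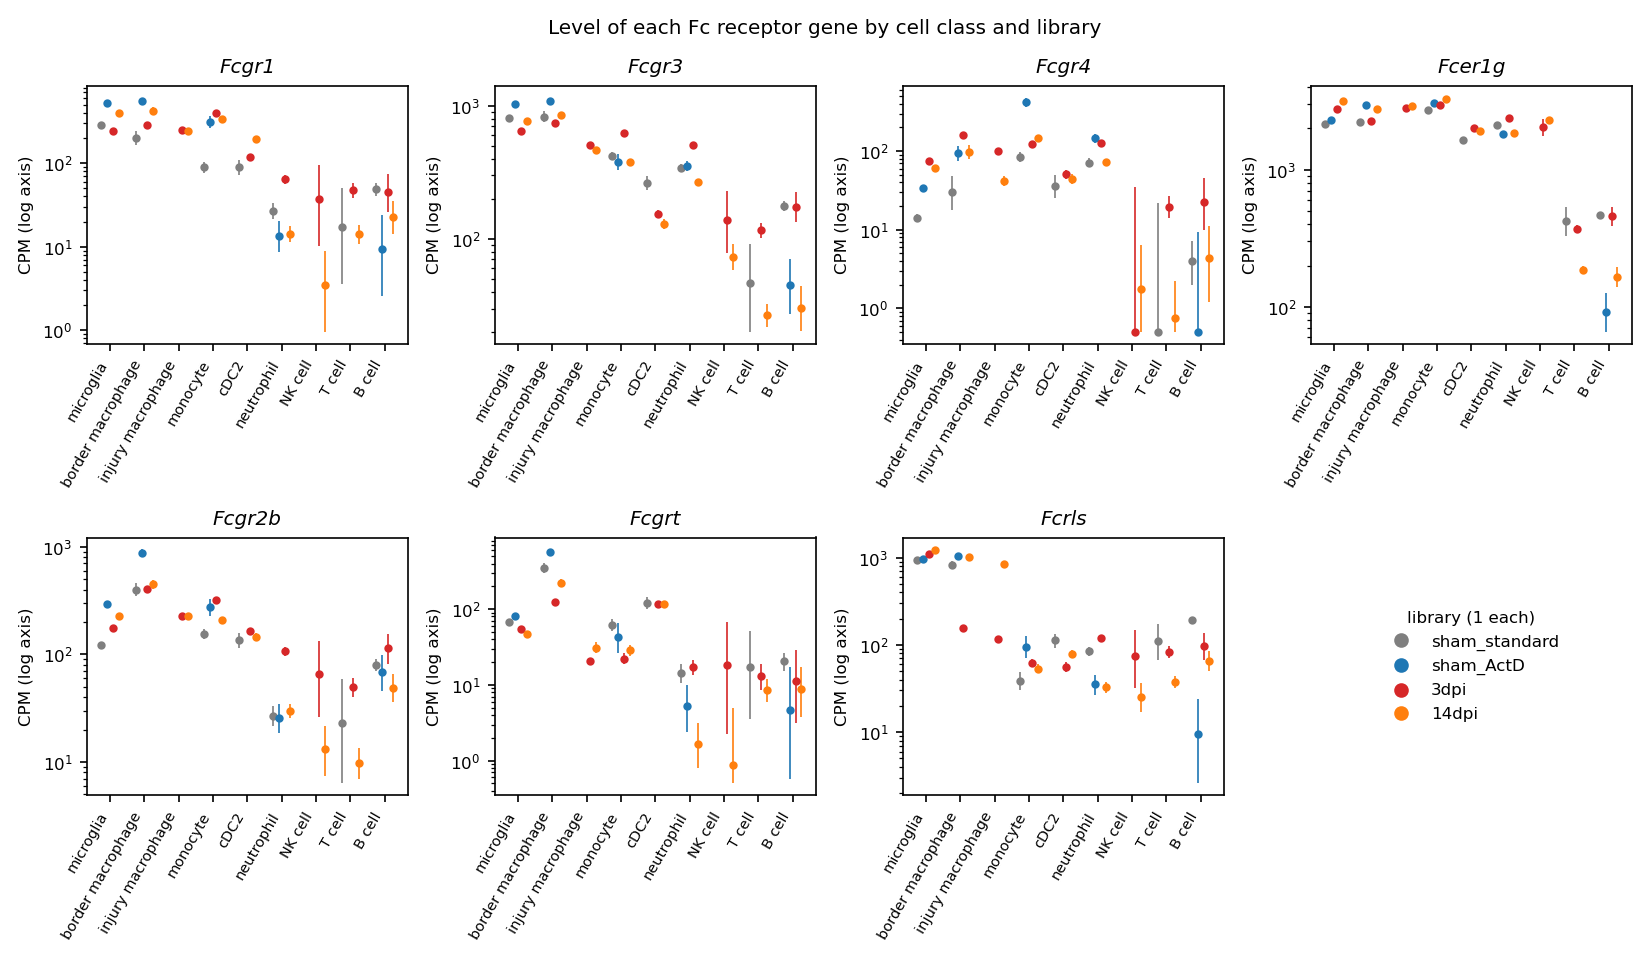
Level of each gene in CPM on a log axis, by cell class, with 1 point per library and exact 95% Poisson intervals, and levels or bounds below 0.5 CPM drawn at 0.5. In microglia Fcgr4 reached 74.3 CPM at 3dpi against 34.3 in sham_ActD, and Fcrls was near 1000 CPM in microglia of the 4 libraries but 117.4 CPM in injury macrophages at 3dpi.

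No gene could be tested between libraries, because each condition is 1 library. The comparisons with sham_ActD share that library, and the median log2 ratio of all genes in microglia was -0.54 for sham_standard, -0.50 for 3dpi and -0.53 for 14dpi over sham_ActD. Ratios are therefore also given relative to that median. Between 3dpi and sham_ActD, Fcgr4 was 2.17-fold higher (log2 ratio 1.12, interval 0.97 to 1.26), which was 1.61 above the median of all genes. Fcgr1 was 1.11 lower on the log2 scale (log2 ratio -1.11, interval -1.16 to -1.05), or -0.61 relative to the median. These 2 of the 7 genes were past 2-fold, 1 in each direction, and the background was 40.5% of the 9189 genes that had 200 or more UMIs over both libraries, 10.3% higher and 30.2% lower. All 7 genes passed this limit. The median log2 ratio of the 7 was -0.57.

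Between 14dpi and sham_ActD, 0 of the 7 genes were past 2-fold, against 18.4% of 9843 genes. Fcgr4 had the highest log2 ratio (0.84, interval 0.71 to 0.97) and Fcgrt the lowest (-0.81, interval -0.90 to -0.71). The log2 ratios of Fcgr1, Fcgr3 and Fcgr2b were -0.37, -0.41 and -0.37, which came to 0.16, 0.12 and 0.15 above the median of all genes. For these 3 genes the direction thus depends on the scaling. Fcer1g and Fcrls were higher at 14dpi under both scales, with log2 ratios of 0.46 and 0.35 and values of 0.98 and 0.88 relative to the median.

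Between 14dpi and 3dpi, 0 of the 7 genes were past 2-fold in microglia, against 20.4% of 9769 genes, and the median of all genes was 0.03. Fcgr1 was 1.67-fold higher at 14dpi (log2 ratio 0.74, interval 0.69 to 0.79). Fcgr2b and Fcgr3 had log2 ratios of 0.37 and 0.27, and Fcgr4 one of -0.28 (interval -0.38 to -0.18). Genes of other cells moved with the time points. The 8 markers of injury macrophages summed to 62.0 CPM in microglia of sham_ActD with 1 marker at 0, to 5368 CPM at 3dpi with none at 0 and to 1079 CPM at 14dpi with none at 0. The 9 microglial markers summed to 19068, 3452 and 8244 CPM, and the part of these differences in the ratios was not tested.

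Between the sham libraries, which differ by the dissociation and by the software version in the matrix headers, 2 of the 7 genes were past 2-fold in microglia, both lower in sham_standard, against 19.1% of genes lower and 23.7% either way. These were Fcgr4 (log2 ratio -1.28, interval -1.49 to -1.08) and Fcgr2b (-1.26, -1.33 to -1.19), at -0.74 and -0.72 relative to the median. Fcer1g, Fcrls, Fcgrt and Fcgr3 had log2 ratios of -0.08, -0.06, -0.25 and -0.35, all above the median of all genes. The choice of sham library therefore sets the sign at 14dpi in CPM for Fcgr2b and Fcgr1. Fcgr2b at 14dpi (227.0 CPM) lay below sham_ActD (294.1 CPM) but above sham_standard (122.9 CPM), and Fcgr1 (400.5 CPM) lay below 517.6 CPM but above 282.2 CPM.

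**Figure D2:**
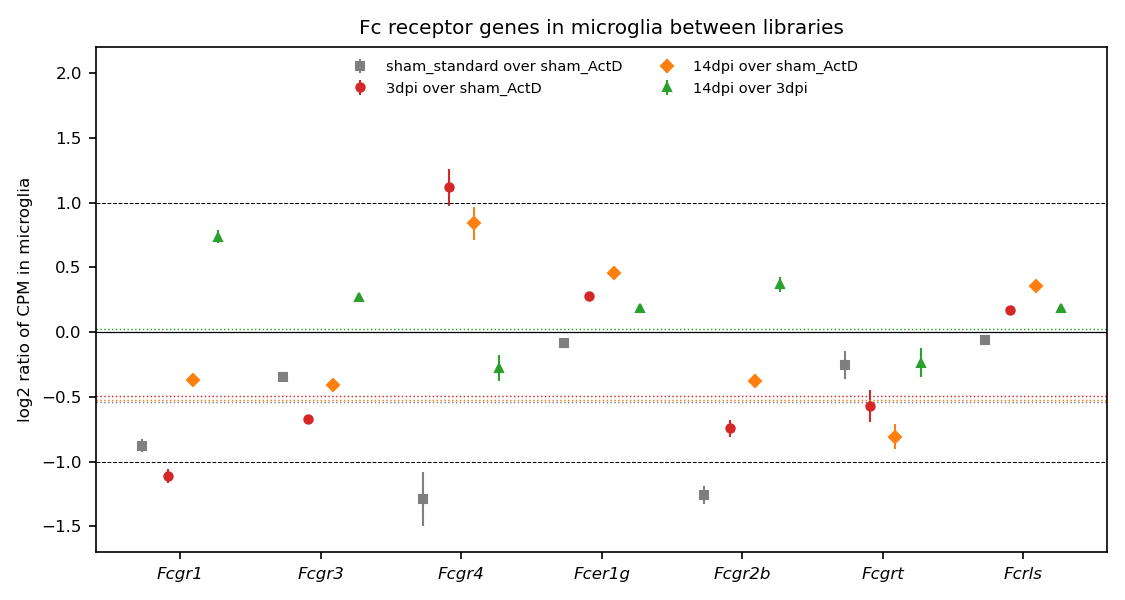
Log2 ratio of CPM in microglia for each gene and each pair of libraries, with exact 95% counting intervals, dashed lines at 2-fold and a dotted line in the colour of each comparison at the median of all genes. Fcgr4 was at 1.12 for 3dpi over sham_ActD, the only ratio above 1, and the dotted medians of the comparisons with sham_ActD lay between -0.54 and -0.50.

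The balance of activating and inhibitory receptors was measured as the activating share, the UMIs of Fcgr1, Fcgr3 and Fcgr4 among the UMIs of these and Fcgr2b. This share does not depend on the scaling of a class. Tags of the 4 genes may be captured with different efficiency, so only differences between classes and libraries are read from it. In microglia the activating share was 89.9% in sham_standard (interval 89.5 to 90.3%), 84.2% in sham_ActD (83.8 to 84.6%), 84.4% in 3dpi (83.9 to 85.0%) and 84.4% in 14dpi (84.2 to 84.7%). The 3 ActD libraries had overlapping intervals and the standard library stood above them. The make-up of the activating UMIs differed more. Fcgr4 made up 1.28% of them in sham_standard, 2.18% in sham_ActD, 7.78% in 3dpi and 4.97% in 14dpi, and Fcgr1 25.7%, 32.9%, 25.2% and 32.5%.

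Macrophages had a lower activating share than microglia in 4 of 4 libraries. It was 72.6% in sham_standard (69.4 to 75.6%), 66.1% in sham_ActD (64.1 to 68.1%), 78.4% in 3dpi (78.1 to 78.7%) and 76.3% in 14dpi (75.2 to 77.3%). The mean difference from microglia in the log2 odds was -1.14 and ranged from -1.75 to -0.58 over the libraries. In an exact two-sided sign-flip test with the 4 libraries as pairs, p was 0.125, the smallest that 4 pairs allow, and it was also 0.125 after Benjamini-Hochberg adjustment over 3 class comparisons. All macrophages of the sham libraries were border macrophages, while most of those at 3dpi were injury macrophages. Border macrophages alone had shares of 72.6%, 66.1%, 74.4% and 75.4%, and injury macrophages had 78.9% at 3dpi and 76.6% at 14dpi.

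The lower share of border macrophages went with a higher level of Fcgr2b. Border macrophages held 399.1 CPM of Fcgr2b in sham_standard, 882.6 in sham_ActD, 407.9 in 3dpi and 446.1 in 14dpi. The log2 ratio over microglia of the same library was 1.70, 1.59, 1.21 and 0.97, past 2-fold in 3 of 4 libraries, against 6.25%, 4.57%, 6.08% and 7.16% of all genes that were 2-fold higher. Fcgr3 was closer to microglia, with log2 ratios of 0.05, 0.08, 0.20 and 0.13. Fcgr4 had log2 ratios of 1.11, 1.46, 1.11 and 0.66 at 30.4 to 161 CPM, from 17 UMIs in sham_standard.

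Fcgrt was also higher in border macrophages, at 350.8, 565.7, 124.5 and 223.1 CPM, with log2 ratios over microglia of 2.36, 2.79, 1.18 and 2.26. It was past 2-fold in 4 of 4 libraries, where 6.25%, 4.57%, 6.08% and 7.16% of all genes were 2-fold higher. The share of all genes past 2-fold in every library was not counted. In injury macrophages it stood at 20.99 CPM at 3dpi and 31.1 CPM at 14dpi. Fcrls was at 825.0, 1050 and 1021 CPM in border macrophages of sham_standard, sham_ActD and 14dpi and at 154.0 CPM at 3dpi. At 3dpi these clusters also held 4237 CPM of Arg1, an injury macrophage marker, against at most 1.79 CPM in the other 3 libraries. Markers of other classes were present too. Microglial markers summed to 862.6, 2409, 564.0 and 3414 CPM in border macrophages of sham_standard, sham_ActD, 3dpi and 14dpi. Neutrophil markers summed to 801.7, 573.8, 687.0 and 4505 CPM in the same order. The part of this RNA in the levels and shares of border macrophages was not tested.

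Injury macrophages had Fcgr3 at 506.4 CPM at 3dpi and 464.6 at 14dpi, Fcgr1 at 245.3 and 243.1, and Fcgr2b at 228.2 and 228.3. Each of these 3 genes had a similar level at 3dpi and 14dpi. Fcgr4 stood at 101.6 and 41.5 CPM and Fcrls at 117.4 and 838.3 CPM. The 273 cells of 14dpi, all of 1 cluster, also held microglial markers. The 9 markers summed to 4099 CPM there, against 724.5 CPM in injury macrophages at 3dpi and 8244 CPM in microglia at 14dpi, and the part of this in the Fcrls level was not tested. Over all macrophages, 5 of the 7 genes were past 2-fold lower at 3dpi than in sham_ActD, against 27.6% of all genes, and the classes compared were injury with border macrophages. Within border macrophages 3 of the 7 genes were past 2-fold, all lower, against 12.3% of genes that were 2-fold lower. The border macrophages of 3dpi held 14183 CPM of injury macrophage markers beside 12797 CPM of border macrophage markers. In sham_ActD these sums were 1060 CPM, with 2 markers at 0, and 11373 CPM. The cells compared thus differed in their markers too, and the part of this in the ratios was not tested.

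Monocytes had activating shares of 79.2%, 80.2%, 78.3% and 80.6%. Fcgr4 stood at 84.3, 416.8, 122.6 and 149.0 CPM, and the log2 ratio over microglia was 2.58, 3.60, 0.72 and 1.28. The 28 monocytes of sham_ActD scored highest as non-classical monocytes, at 0.991 against 0.665 for classical monocytes on a scale from 0 to 1. Those of sham_standard (0.908 classical, 0.896 non-classical) and 14dpi (0.891 and 0.798) scored high as both. Those of 3dpi scored 0.762 as classical monocytes and 0.651 as injury macrophages. They held 16259 CPM of injury macrophage markers beside 5259 CPM of classical monocyte markers. The injury macrophage markers summed to 5948, 2183 and 3458 CPM in monocytes of sham_standard, sham_ActD and 14dpi. The library and the kind of monocyte therefore cannot be told apart. Dendritic cells of the cDC2 class, absent as a named class from sham_ActD, had shares of 74.1% in sham_standard, 66.4% in 3dpi and 71.8% in 14dpi. Their Fcgr3 level of 261.5, 153.8 and 129.9 CPM was past 2-fold below microglia in each, against 17.4%, 13.8% and 14.1% of all genes, while Fcgrt was at 121.7, 118.7 and 118.1 CPM.

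**Figure D3:**
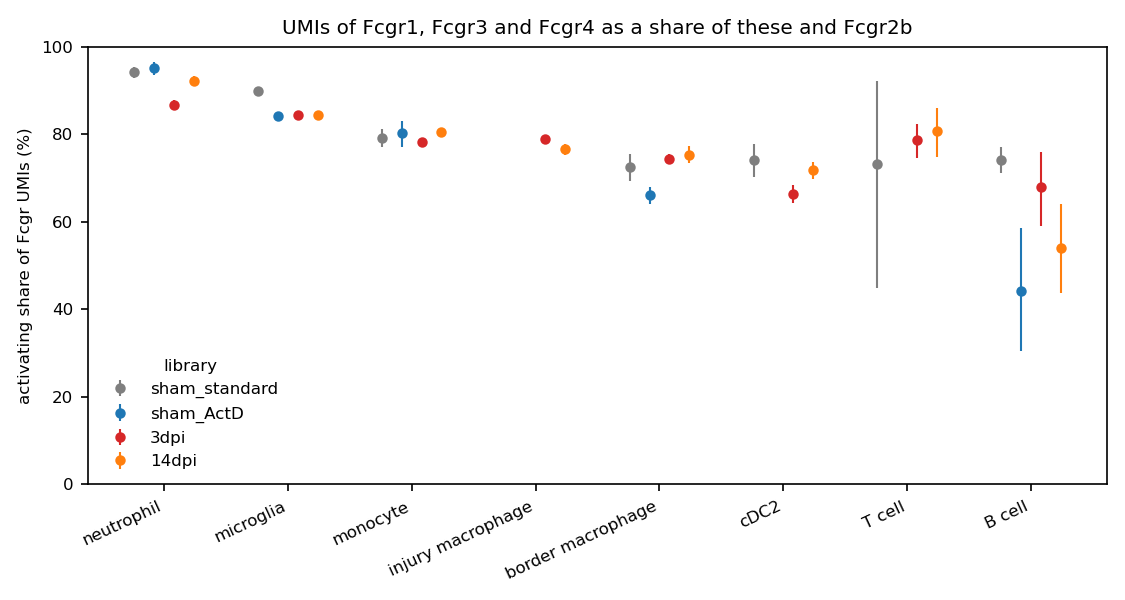
Activating share of the Fcgr UMIs in percent by cell class, with 1 point per library and exact Clopper-Pearson 95% intervals, on an axis from 0 to 100%. Neutrophils were at 86.7 to 95.2% and macrophages below microglia in each library, and the wide intervals of T cells in sham_standard come from 15 UMIs.

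Neutrophils had a higher activating share than microglia in 4 of 4 libraries, at 94.3% (92.99 to 95.4%) in sham_standard, 95.2% (93.6 to 96.5%) in sham_ActD, 86.7% (85.6 to 87.8%) in 3dpi and 92.2% (91.1 to 93.3%) in 14dpi. The mean difference in log2 odds was 1.04, from 0.27 to 1.88, with an exact sign-flip p of 0.125, the smallest possible, and an adjusted p of 0.125. At 3dpi the ranges of both classes over other ways of processing overlapped, as given further on. Fcgr1 was at 27.1, 13.5, 63.7 and 14.1 CPM. Fcgr2b was at 26.8, 25.8, 107 and 30.0 CPM. As a share of the microglial level, Fcgr1 came to 9.59%, 2.61%, 26.5% and 3.53%. The 9 microglial markers, taken as the background of RNA from other cells, ranged from 9.06% to 10.8%, 2.14% to 5.38%, 7.51% to 94.5% and 2.05% to 7.79%, with a median of 9.96% at 3dpi. Fcgr1 lay within that range in each library, but at 3dpi the range was too wide to separate background from expression. In neutrophils with fewer than 3 UMIs of microglial markers Fcgr1 was at 6.98, 7.11, 63.2 and 8.94 CPM. In the other neutrophils it was at 53.3, 19.7, 64.6 and 25.1 CPM. Fcgr1 is not read as expression by neutrophils, and its source at 3dpi was not tested. Over all neutrophils Fcgr2b came to 21.8%, 8.77%, 60.6% and 13.2% of the microglial level, above the highest marker in each library but 3dpi. In neutrophils with fewer than 3 UMIs of microglial markers Fcgr2b was at 10.7, 14.2, 105.9 and 21.4 CPM. It was at 47.7, 37.2, 108.1 and 48.1 CPM in the other neutrophils, and its source was not tested. Fcgr3 stood at 342.5, 353.1, 504.8 and 268.7 CPM, and Fcgr4 at 71.2, 146.0, 127.9 and 72.7 CPM, above its level in microglia of the same library in 4 of 4.

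Neutrophils at 3dpi differed from those of the other libraries in more than these genes. Of the named neutrophils, cluster 3 held 141 of 390 in sham_standard, 28 of 103 in sham_ActD and 1785 of 1822 at 3dpi. At 14dpi all 649 were in cluster 9, and the 561 cells of cluster 3 stayed without a name. Comparisons between these libraries are thus also between clusters, and the part of this in the shares and ratios was not tested. The median UMI count of neutrophils at 3dpi was 2289 against 6691.5 to 13650. Their 8 markers summed to 54624 CPM against 325392 to 422742 CPM, and the median log2 ratio of all genes over sham_ActD was 0.84. The 9 microglial markers summed to 810.9 CPM and the 8 injury macrophage markers to 3899 CPM, against 703.8 and 1249 CPM in sham_ActD with 2 of the injury macrophage markers at 0. Relative to the median of all genes, Fcgr1 was 1.40 and Fcgr2b 1.21 higher on the log2 scale at 3dpi than in sham_ActD, and Fcgr3 and Fcgr4 were -0.32 and -1.03. Among the 6 genes with enough UMIs, 3 were past 2-fold higher against 44.7% of all genes. The 561 unnamed cells of cluster 3 at 14dpi had 8 neutrophil markers detected, and their activating share was 97.7%. Another 183 unnamed cells of 14dpi, which also scored highest as neutrophils, had a share of 75.3%, and with unnamed clusters assigned the share at 14dpi was 90.5%.

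Fcgr2b stood apart from the activating receptors in B cells. B cells lack microglial markers, so the level of those markers in B cells was taken as the background of RNA from other cells. In sham_standard the 9 microglial markers stood in B cells at 17.9% to 23.5% of their microglial level, with a median of 20.1%. Fcgr1, Fcgr3, Fcer1g and Fcrls were at 17.2%, 22.0%, 21.5% and 20.7%, while Fcgr2b was at 64.8%. In sham_ActD the markers had a median of 4.07% and a highest value of 6.04%, the same 4 genes lay between 0.978% and 4.40%, and Fcgr2b was at 23.3%. At 3dpi the markers reached 22.8% with 1 of 9 at 0, Fcgr3 was at 27.1% and Fcgr2b at 64.7%. At 14dpi the markers reached 10.3%, Fcgr3 was at 3.96% and Fcgr2b at 21.6%. Fcgr2b was thus above all 9 markers in 4 of 4 libraries, Fcgr3 at 3dpi alone, and Fcgr1 in none. Fcgrt was above them in sham_standard and 14dpi, at 29.9% and 18.7%, and Fcgr4 in sham_standard and 3dpi, at 28.6% and 30.7%, from at most 11 UMIs. In sham_standard 44 Fcgrt UMIs were in B cells with at least 3 UMIs of microglial markers and 12 in the other B cells. At 14dpi these counts were 2 and 6. At 3dpi B cells also held injury macrophage markers, which summed to 2702 CPM with none of 8 at 0, against 23.7 to 111 CPM in the other libraries. The part of this RNA in the 3dpi levels was not tested. In T cells Fcgr2b was at 18.8%, 28.2% and 4.32% of the microglial level in sham_standard, 3dpi and 14dpi, where the highest marker was at 8.57%, 12.7% and 4.93%. At 3dpi Fcgr1 (19.8%), Fcgr3 (18.2%), Fcgr4 (26.3%), Fcer1g (13.3%) and Fcgrt (23.8%) were also above the highest marker in T cells. In sham_standard Fcer1g (19.5%), Fcgrt (25.4%) and Fcrls (11.8%) were, and at 14dpi Fcer1g (5.90%) and Fcgrt (18.4%). The sham_standard values of Fcgr2b and Fcgrt rested on 4 and 3 UMIs in 26 T cells. All of these UMIs were in the 11 T cells with at least 3 UMIs of microglial markers. At 3dpi 82 UMIs of Fcgr2b were in the 421 T cells with fewer than 3 such UMIs. A level above all 9 markers was therefore not particular to B cells.

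**Figure D4:**
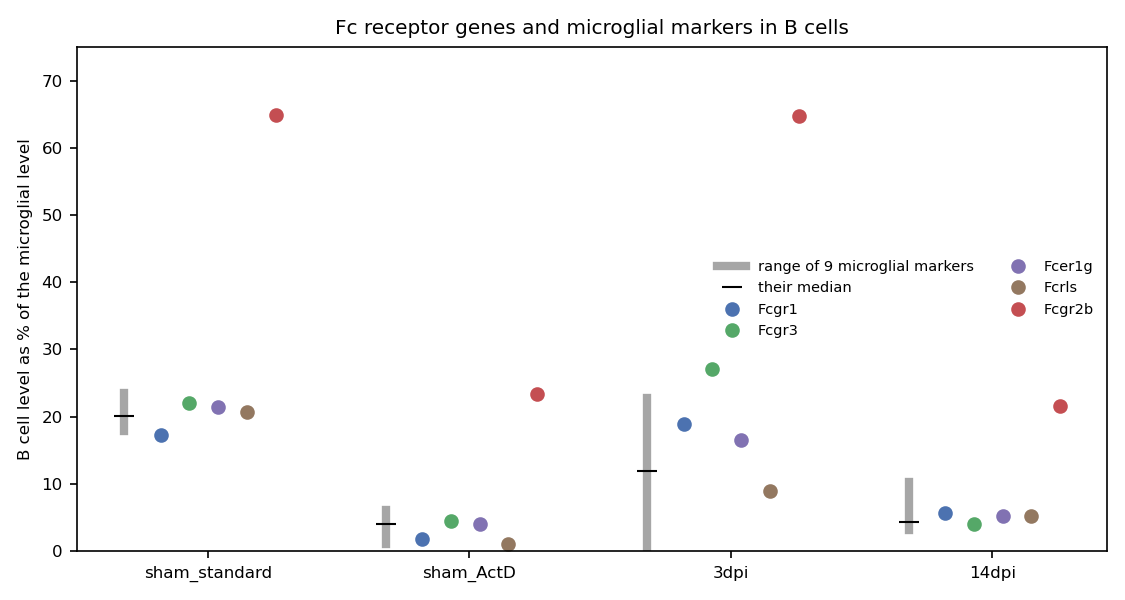
Level in B cells as a percentage of the level in microglia of the same library for 5 Fc receptor genes, beside the range and median of 9 microglial markers. Fcgr2b was at 64.8%, 23.3%, 64.7% and 21.6%, above the highest marker in each library.

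Counted over all their UMIs, B cells had an activating share of 74.2% (71.1 to 77.1%), 44.2% (30.5 to 58.7%), 68.0% (59.1 to 76.1%) and 54.1% (43.7 to 64.2%). It was lower than in microglia in 4 of 4 libraries, by -1.99 in log2 odds on average (range -2.75 to -1.36, exact sign-flip p = 0.125, adjusted p = 0.125). These shares rest on 844, 52, 125 and 98 UMIs. In sham_standard 583 of the 626 activating UMIs were held by 128 B cells with at least 3 UMIs of microglial markers. In the other 460 B cells the activating share was 28.3% (21.3 to 36.2%), with Fcgr3 at 19.4 CPM, Fcgr1 at 2.28 CPM and Fcgr2b at 62.2 CPM. The share among cells with fewer than 3 such UMIs was 9.52% in sham_ActD, 63.7% in 3dpi and 49.3% in 14dpi, where Fcgr2b stood at 61.6, 121.0 and 46.1 CPM. The limit of 3 UMIs was chosen after the values had been seen.

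B cells are also where inhibition through Fcgr2b meets the B cell receptor. Of the genes on that path, Inpp5d, which encodes SHIP1, stood in B cells at 192.3, 132.6, 259.1 and 116.5 CPM and Ptpn6, which encodes the phosphatase SHP-1, at 263.2, 504.2, 407.2 and 463.9 CPM in the 4 libraries. In microglia Inpp5d was at 313.4, 419.5, 186.9 and 198.2 CPM and Ptpn6 at 211.3, 323.0, 252.8 and 232.1 CPM.

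T cells had 15, 465 and 204 Fcgr UMIs in sham_standard, 3dpi and 14dpi, with activating shares of 73.3%, 78.7% and 80.9%. They served as the class that should lack Fcgr1, Fcgr3, Fcgr4 and Fcgr2b, but not Fcer1g and Fcgrt. Those genes stood above the highest microglial marker in T cells of each of these libraries, as given above. NK cells held Fcer1g at 2036 CPM at 3dpi and 2318 CPM at 14dpi, against 369.7 and 185.8 CPM in T cells. Their Fcgr3 level at 14dpi was 73.7 CPM (58.8 to 91.2) against 26.7 CPM (21.8 to 32.3) in T cells, and at 3dpi it was 139.5 CPM (78.1 to 230.0) against 116.4 CPM (101.9 to 132.4), where the intervals overlap. Fcgr4 was at 1.75 CPM (2 UMIs) in NK cells at 14dpi and had no UMI at 3dpi in 33 cells, which allows up to 27.9 CPM. Cells with UMIs of Itgam and of Klrb1c, which many NK cells express together, had been removed. Endothelial cells, 28 cells at 14dpi, held Fcgrt at 270.2 CPM (208.5 to 344) with Fcgr3 at 20.8 CPM.

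Within microglia, Fcgr1 and Fcgr4 were higher in the cluster led by interferon response genes. In sham_standard this cluster of 22 cells, with Ifit3, Ifit3b, Ifit2 and Rsad2 as leading genes, held 1025 CPM of Fcgr1 against 275.4 CPM in the other microglia, a 3.72-fold difference (log2 ratio 1.90, interval 1.68 to 2.11). Fcgr4 was at 109.6 against 13.2 CPM, 8.31-fold (log2 ratio 3.06, interval 2.32 to 3.71), from 20 UMIs. At 14dpi the cluster held 126 cells. Fcgr1 was at 914.1 against 382.7 CPM (log2 ratio 1.26, interval 1.18 to 1.33) and Fcgr4 at 238.6 against 55.2 CPM (log2 ratio 2.11, interval 1.96 to 2.27).

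The other genes differed less in these clusters. Fcgr3 had log2 ratios of 0.09 in sham_standard and 0.09 at 14dpi, Fcer1g 0.24 and 0.07, and Fcgr2b -0.32 and 0.46. Fcgrt had -0.48 and -0.35 and Fcrls -0.71 and -0.32. So 2 of the 7 genes were past 2-fold higher in both libraries, against 5.4% and 3.46% of all genes. At 3dpi the cells of this cluster, 36 in number, were named injury macrophages. Against the other injury macrophages Fcgr1 had a log2 ratio of 1.33 (1.15 to 1.49) and Fcgr4 one of 1.12 (0.83 to 1.40), but Fcrls one of 1.98, and 8.86% of all genes were 2-fold higher. Clusters were formed from the same cells, and the cluster was picked for its leading genes, so these ratios are a description. The promoter window of Fcgr4 printed above held the ISRE-like match, and whether the motif bears on the levels was not tested.

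**Figure D5:**
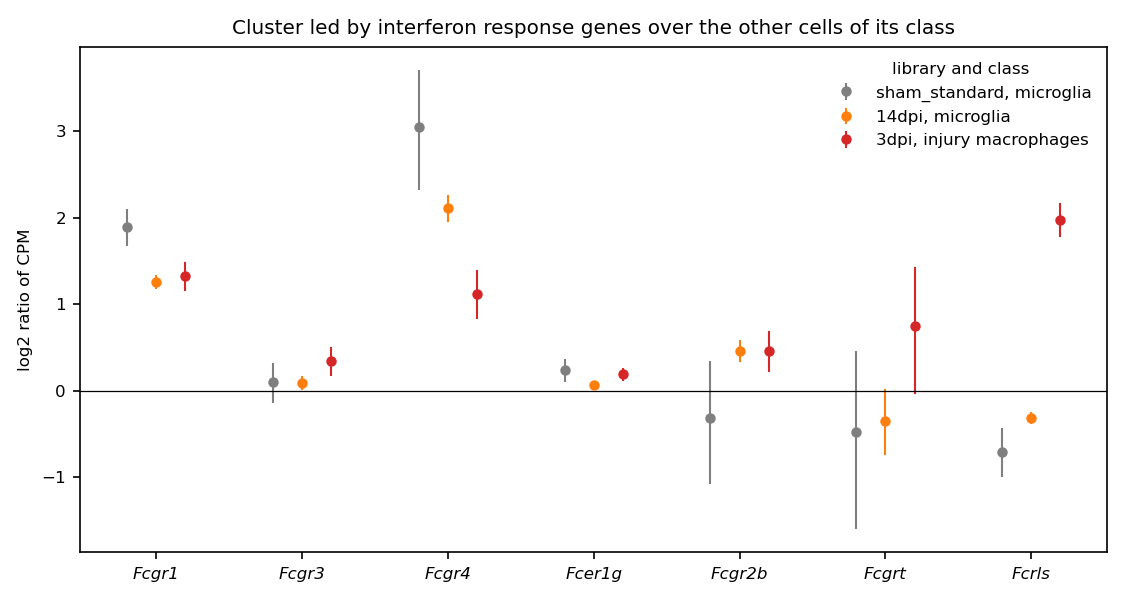
Log2 ratio of CPM for each gene in the cluster led by interferon response genes over the other cells of its class, with exact 95% counting intervals, in microglia of sham_standard and 14dpi and in injury macrophages of 3dpi. Fcgr1 was between 1.26 and 1.90 and Fcgr4 between 1.12 and 3.06, while Fcgr3 was at 0.34 or less.

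UMIs of activating and inhibitory receptors were found in the same cells. After thinning to 1000 UMIs, 6.84%, 19.8%, 10.6% and 15.4% of microglia held UMIs of both kinds, and 4.26% to 5.24% held Fcgr2b alone. Among border macrophages 18.3%, 44.3%, 24.5% and 30.3% held both. Among T cells 0%, 0.792% and 0.134% did in sham_standard, 3dpi and 14dpi.

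Across 33 sums of a class and a library with at least 50 cells, the levels of the members were compared with those of 9682 genes with at least 1000 UMIs, on the log2(CPM + 1) scale. The sums share libraries, so Pearson's r is a description. Fcer1g was most like Tyrobp (r = 0.97), the other ITAM adaptor of myeloid cells, and Ralb (0.88). Fcrls was most like C1qa (0.96) and C1qc (0.96), Fcgr1 most like P2ry6 (0.95) and Aif1 (0.94), and Fcgr3 most like Lamp2 (0.96) and Sirpa (0.94). Fcgr2b was most like Adam9 (0.92) and Ctsc (0.92), Fcgr4 most like Cd300ld (0.91) and Tlr13 (0.90), and Fcgrt most like Hfe (0.90) and Lifr (0.89). Among the members, Fcgr1 and Fcgr2b were the most alike pair (0.91) and Fcgr4 and Fcrls the least (0.47).

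The partners of the receptors were followed in microglia through lists of genes. Of 14 activating adaptors and kinases with enough UMIs, 2 were past 2-fold higher and 6 lower at 3dpi than in sham_ActD, with a median log2 ratio of -0.91 against -0.50 over all genes and 10.3% and 30.2% of genes past 2-fold higher and lower. Vav3 (log2 ratio 3.29) and Fgr (1.88) were higher, and Card9 (-1.86) and Lyn (-1.71) lower. Tyrobp was at 0.01 at 3dpi and 0.88 at 14dpi. Of 13 of these genes at 14dpi, 1 was higher, Fgr (2.07), and 3 were lower, with a median of -0.78 against -0.53 over all genes and 3.72% and 14.7% of genes past 2-fold higher and lower. Over 7 inhibitory phosphatases and adaptors the medians were -0.36 at 3dpi and -0.45 at 14dpi, Inpp5d was at -1.17 and -1.08 and Ptpn6 at -0.35 and -0.48. Dok2 was at 3.43 and 1.03.

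Genes listed as other receptors with an ITIM split in both directions. The list and its counts include Lilr4b, which encodes gp49A, a receptor without an ITIM. Of 13 genes, 5 were past 2-fold higher and 6 lower at 3dpi over sham_ActD, and 5 higher and 4 lower at 14dpi, against the same 10.3% and 30.2% of all genes at 3dpi and 3.72% and 14.7% at 14dpi. Lilr4b (6.37 and 3.13) and Lilrb4a (4.81 and 3.88) were higher at both time points and also in sham_standard (3.05 and 3.24). Siglece was lower at 3dpi (-2.37), and Cd22 (2.72) and Cd72 (2.48) were higher at 14dpi. Of receptors that pair with Fcer1g or Tyrobp, 4 of 6 were past 2-fold higher at 3dpi, against 10.3% of all genes, and they included the lectin Clec4d (log2 ratio 7.84, from 5 UMIs in sham_ActD) and Clec4e (7.34, from 4 UMIs). Trem1 had 1 UMI and Clec4n 3 UMIs in sham_ActD, with log2 ratios of 8.26 (interval 5.77 to 13.57) and 7.57 (6.01 to 9.85). The injury macrophage markers, which summed to 62.0 CPM in microglia of sham_ActD and 5368 CPM at 3dpi, moved with these genes, and their part in the ratios was not tested. Trem2 was at 0.36 at 14dpi. B2m, the partner of Fcgrt, was at -1.84 and 0.07. Of other Fc-binding proteins only Fcrl1 and Trim21 had enough UMIs in microglia. Trim21, a cytosolic antibody receptor, was at -1.66 and -0.59.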

How the data were processed

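CD45+ cells from 4 droplet libraries (3′ chemistry) were analysed, 1 library per condition. The authors deposited filtered matrices of raw UMI counts per gene and barcode, made with Cell Ranger on mm10 per the labels and written by software version 3.0.1 (sham_standard, 3dpi) or 3.1.0 (sham_ActD, 14dpi). No other value columns were used, and 30934 of 31053 gene IDs matched GENCODE M21. The software and the dissociation cannot be told apart between the sham libraries. The software version also differed between 3dpi and sham_ActD and between 14dpi and 3dpi. There it cannot be told apart from the time point.

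A cell was kept with 600 or more genes and no more than 10% of its UMIs from mitochondrial genes. As in the study, cells that expressed both Itgam and a lymphoid marker were dropped. Doublets (291, 42, 774 and 931 barcodes) were removed with Scrublet in scanpy 1.11.5 in place of DoubletFinder, at 0.8% per 1000 cells. The libraries were integrated in Seurat 5.3.0 (R 4.3.3) with 2000 features that left out the 7 genes, 50 dimensions and resolution 0.6, which gave 25 clusters. A cluster was named per library when at least 3 markers were detected in at least 25% of its cells and its 10 leading genes did not point to another class. A cluster also stayed unnamed when its median UMI count was below that of its library divided by 3 and none of its 10 leading genes was its own marker, or when it scored highest as microglia and injury macrophage with the lower score at least 70% of the higher. The thresholds of this rule were chosen with the clusters in view.

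Levels were computed from UMI sums over the cells of a class in 1 library, and genes with at least 200 UMIs in a pair were compared. Intervals are exact Poisson, conditional binomial or Clopper-Pearson intervals (scipy 1.17.1), and a count of 0 allows up to 3 counts. With 1 library per condition no test between conditions was possible. Classes were compared over the 4 libraries as pairs with an exact two-sided sign-flip test. TMM factors came from edgeR 4.0.16, which was used for scaling only. The interval code was tested on simulated data. Names beyond the 7 genes followed a rule of at most 4 genes per list and comparison with the largest absolute log2 ratios, with Tyrobp, Inpp5d, Ptpn6 and B2m in any case, and the 2 genes most like each member. The members and lists were chosen with earlier results of these data known. Alternatives were other filters, resolutions, clustering per library, no doublet removal, thinning, a mean over cells, TMM, and, chosen after seeing the data, other ways to assign clusters and cells.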

Additional observations from a re-analysis of the deposited data

Results flagged for a closer look

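Several genes had ratios past 2-fold in opposite directions in different classes, in CPM and under the same pair of libraries. Each class has 1 library per condition, so the difference was not tested for any of them. Between 3dpi and sham_ActD, Fcgr1 had a log2 ratio of 2.24 in neutrophils, -1.11 in microglia and -1.15 in macrophages. Fcgr2b had 2.05 in neutrophils and -1.87 in macrophages, and Fcrls had 1.75 in neutrophils and -3.13 in macrophages. In neutrophils the median of all genes stood at 0.84 in this comparison. Cluster 3 held 28 of the 103 neutrophils of sham_ActD and 1785 of the 1822 at 3dpi. Fcgr1 in neutrophils was at 2.61% of the microglial level in sham_ActD and 26.5% at 3dpi, where the 9 microglial markers ranged from 2.14% to 5.38% and from 7.51% to 94.5%, and Fcgr2b was at 8.77% and 60.6%. Fcgr4 had 1.12 in microglia and -1.77 in monocytes, where the sham_ActD cells were the 28 that scored highest as non-classical monocytes. The monocytes of 3dpi held 16259 CPM of injury macrophage markers, against 2183 CPM in those of sham_ActD. Between 14dpi and 3dpi, Fcrls had 2.86 in macrophages, -1.86 in neutrophils and -1.12 in T cells. All 649 named neutrophils of 14dpi were in cluster 9. Fcrls in neutrophils and T cells was at 2.64% to 11.8% of the microglial level, and the microglial markers had medians of 2.53% to 10.4% there.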

How the results depend on the processing

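No class difference in the activating share, as a mean over the libraries, changed sign under any alternative run. The sign within each library was not compared over the runs. At 3dpi the share ranged over the runs from 83.3% to 86.8% in microglia and from 86.0% to 87.2% in neutrophils, and these ranges overlap. The mean log2 odds ranged from -1.23 to -0.95 for macrophages, from 0.69 to 1.21 for neutrophils and from -3.50 to -1.69 for B cells. When each library was clustered alone, B cells were named in 3 libraries, where the exact sign-flip p cannot go below 0.25. No paired analysis was possible because each condition is 1 library, so that its replicate number pairs no samples between conditions. Counting depth gave the B cell share of sham_standard an interval of 71.1 to 77.1%, while the alternatives moved it between 28.3% and 78.9%. The cause of the following shifts was not tested. Log2 ratios in microglia shifted by up to 0.53 with TMM factors, which changed the sign of 7 of 28, and by -0.45 to 0.44 without doublet removal, which changed 2. The stricter and the looser filter changed 1 each, and shifts reached -0.37 after thinning and -0.35 with each library clustered alone.

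In microglia the activating share in sham_standard was 89.5% with the looser filter and 89.4% with Itgam-positive lymphoid cells kept. At 3dpi it was 85.2% with each library clustered alone, 83.3% with the stricter filter, 86.8% without doublet removal and 85.4% after thinning. In sham_ActD macrophages it was 69.98% clustered alone, 68.5% at resolution 0.3 and also with unnamed clusters assigned, 69.7% with the stricter filter and 68.1% with Itgam-positive cells kept. At 3dpi the macrophage share was 78.0% clustered alone, 78.8% at resolution 0.3, 77.9% as a mean over cells, 77.7% thinned, 78.9% with unnamed clusters assigned and 74.4% for border macrophages alone. At 14dpi it was 74.5% clustered alone, 78.3% with the stricter filter and 75.1% with Itgam-positive cells kept. In neutrophils of sham_standard it was 92.4% without doublet removal, 95.9% as a mean over cells and 95.4% thinned, and in sham_ActD 92.4% thinned. At 14dpi it was 93.6% with the looser filter, 87.7% without doublet removal and 90.5% with unnamed clusters assigned.

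In B cells of sham_standard the share was 78.9% at resolution 1.2, 42.4% with the stricter filter, 37.2% without doublet removal, 46.9% with Itgam-positive cells kept, 61.1% as a mean over cells, 54.2% thinned and 28.3% in cells with fewer than 3 microglial marker UMIs. In sham_ActD it was 14.7% with the looser filter, 28.5% as a mean over cells, 28.6% thinned and 9.52% in cells with few such UMIs, and at 14dpi 73.9% with unnamed clusters assigned. The cells counted as B cells differed between these runs. In sham_standard, 262 cells with the stricter filter and 303 without doublet removal scored highest as B cells but stayed unnamed. Rag1 was among their leading genes. The number of the 7 genes past 2-fold in microglia for sham_standard over sham_ActD was 0 with TMM factors and 3 with each library clustered alone or at 1.5-fold. For 3dpi over sham_ActD it was 1 clustered alone, without doublet removal, thinned or with TMM factors, and 4 at a limit of 1.5-fold. For 14dpi over sham_ActD it was 1 with the stricter filter or TMM factors and 2 at 1.5-fold, and for 14dpi over 3dpi 1 at 1.5-fold.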

Other observations

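Fc receptor genes were also found in classes outside the comparisons above. Plasmacytoid dendritic cells held Fcer1g at 1042 CPM in sham_standard, 1368 in 3dpi and 1559 in 14dpi. Fibroblasts, 20 cells in sham_ActD and 25 in 14dpi, held Fcgrt at 318 and 124 CPM. Myeloid progenitors had activating shares of 76.2% in sham_standard, 73.9% in 3dpi and 75.4% in 14dpi, and Fcgr3 made up 91.3%, 65.5% and 80.8% of their activating UMIs. Cells named mast cells or basophils had shares of 68.1% in sham_standard and 72.3% in 14dpi.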
